A study of Mus musculus with 6 samples.

Results

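The data concern 10 genes of the cohesin complex and its regulators, chosen by symbol out of the 23235 genes of the deposited expression table: Rec8, Rad21, Smc1a, Smc3, Stag1, Stag2, Nipbl, Wapal (now Wapl), Pds5a and Pds5b. All 10 had a row in the table. The cells were labelled as LT-HSCs, the long-term stem cells of the bone marrow that sustain blood formation, sorted from mice aged 2 months labelled as Hmces knockout (3 libraries) or wild type (WT, 3 libraries), all of strain C57BL/6. The HMCES protein attaches to abasic sites on single-stranded DNA. Each library came from the RNA of 1500 sorted cells amplified by the Smart-seq2 method. The allele behind the knockout, the antibodies of the sort and any pooling of mice are not described in the labels, and the titles of both groups carry a tag of 13bp that is not explained. The members were selected with differences between Hmces knockout and WT libraries of this same table in view, so their differences between the groups are given as a description with no test. Values are FPKM, fragment counts scaled to transcript length and to the mapped fragments of the library, so that levels of different genes can be set side by side within a library.

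Cohesin is a ring-shaped complex that holds sister chromatids together from replication to anaphase and folds interphase chromatin into loops. The ring is formed by SMC1 and SMC3 and closed by a kleisin subunit, RAD21 in dividing somatic cells and REC8 in meiosis, with STAG1 or STAG2 bound to the kleisin. NIPBL loads the ring and drives loop extrusion, WAPL opens it, and PDS5A and PDS5B bind the kleisin and take part in both release and protection of the ring. In blood, mutations of STAG2, SMC3, RAD21 and SMC1A recur in human myeloid malignancies, and lower cohesin dose in mouse stem cells favours self-renewal over differentiation.

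The region around the Rec8 start is shown first, because Rec8 was the member that differed most between the groups, with that of Smc1a, the member with the highest level, beside it. Both are RefSeq promoters of 300 bases on build GRCm38.p6, reaching from 250 bases before to 50 bases after the start, printed 5′ to 3′ on the plus strand, Rec8 at chr14:55617916-55618215 and Smc1a at chrX:152016178-152016477. Capitals mark matches on either strand to CCAAT, the box bound by NF-Y, or to TTCCCGC, a core of E2F sites.
Rec8: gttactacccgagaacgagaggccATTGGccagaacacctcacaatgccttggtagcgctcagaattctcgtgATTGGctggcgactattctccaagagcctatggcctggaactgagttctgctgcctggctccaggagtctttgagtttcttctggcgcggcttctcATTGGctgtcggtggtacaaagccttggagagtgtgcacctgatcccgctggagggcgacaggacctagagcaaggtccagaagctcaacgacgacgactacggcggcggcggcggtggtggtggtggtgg
Smc1a: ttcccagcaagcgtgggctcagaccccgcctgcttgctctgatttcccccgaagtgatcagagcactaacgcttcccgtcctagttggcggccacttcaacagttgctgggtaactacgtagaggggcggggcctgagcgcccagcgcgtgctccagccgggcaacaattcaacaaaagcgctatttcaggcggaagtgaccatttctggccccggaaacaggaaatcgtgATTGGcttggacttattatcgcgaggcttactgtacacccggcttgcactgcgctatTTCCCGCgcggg
The Rec8 window held 3 matches to CCAAT, a number reached by 3.37% of 32841 promoters of this length, and 0 matches to TTCCCGC, found in 4.60% of promoters. The Smc1a window held 1 match to CCAAT, found at least once in 37.4% of promoters, and 1 match to TTCCCGC. Neither window matched the E-box CACGTG, found in 7.15% of promoters. The motifs do not overlap in these windows, and a match describes letters only. CpG dinucleotides numbered 18 in the Rec8 window and 23 in the Smc1a window, against a median of 7 over all promoters. Among the 7 members with a promoter in the table, Rec8 had the fewest CpG dinucleotides, and Pds5a had the most at 55.

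The labels were checked on the targeted gene, listed under its earlier symbol 8430410A17Rik. Hmces was read at 8.95, 0.222 and 6.95 FPKM in knockout replicates 1 to 3, against 39.5, 45.4 and 41.0 FPKM in WT replicates 1 to 3, the direction the labels give. Even so limma did not call it (log2 fold change -3.23, SE 0.71, adjusted p = 0.289). A gene left uncalled in these data is therefore not shown to be unchanged. Depth was estimated from the steps of low values at 9300000 to 11200000 fragments in knockout and 9700000 to 14200000 fragments in WT libraries. On the first principal component knockout replicate 2 lay away from the rest, at 67.0 against -33.6 to 10.1 for the other 5 libraries. Of 12 markers of LT-HSCs, 10 passed the filter on low values, with a median log2 fold change of -0.07, whereas Fgd5 and Hoxb5 lay below 1 FPKM on average. The following marker genes were picked after their values were seen. Slamf1, which encodes CD150 and is commonly used to sort LT-HSCs, averaged 2.43 ± 1.12 FPKM in knockout and 3.46 ± 1.47 FPKM in WT libraries, and Ly6a, which encodes Sca-1, averaged 311 ± 48.8 FPKM in knockout and 231 ± 21.7 FPKM in WT libraries, with every knockout library above every WT library (SD, n = 3 each; limma adjusted p = 0.788 and 0.488). All 6 genes of multipotent progenitors passed, with a median of 0.12. Among those whose proteins are usually absent from LT-HSCs or low on them, Flt3 averaged 141 ± 8.22 FPKM in knockout and 137 ± 15.1 FPKM in WT libraries, and Cd34 averaged 471 ± 22.1 FPKM in knockout and 487 ± 16.5 FPKM in WT libraries (SD, n = 3 each). Cd48, of the same kind, was read at 268, 307 and 263 FPKM in knockout libraries, against 145, 175 and 220 FPKM in WT libraries, without overlap (limma adjusted p = 0.324). Over all genes tested, 7.47% had every knockout library above every WT library. The 12 granulocyte and monocyte markers summed to 18191 to 24525 FPKM in knockout libraries, against 6446 to 10077 FPKM in WT libraries. Most of this sum came from S100a8 and S100a9, which averaged 9853 and 5284 FPKM in knockout and 4135 and 2394 FPKM in WT libraries. None of these 12 was at 0, 11 had a positive log2 fold change (median 1.17), and limma called 2, Mpo and Ctsg, both higher in knockout libraries, where 0.113% of all genes were called. The B cell and the T and NK cell markers had positive log2 fold changes in all 5 and all 4 genes tested, with sums of 66.5 to 129 and 380 to 470 FPKM in knockout libraries, against 58.9 to 74.7 and 302 to 426 FPKM in WT libraries. Nearly all of the T and NK sum was Nkg7, which averaged 416 FPKM in knockout and 355 FPKM in WT libraries. The erythroid and megakaryocyte markers had medians of 0.15 and -0.16. No gene of these 4 lists, of the LT-HSC markers or of the progenitor genes was called.

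Rec8, the meiotic kleisin, was the member with the widest gap between the groups. It was read at 2.54, 1.39 and 3.13 FPKM in knockout replicates 1 to 3, against 8.27, 8.28 and 10.2 FPKM in WT replicates 1 to 3. All 3 knockout values lay below all 3 WT values, and knockout replicate 2, the library that stood apart over all genes, had the least Rec8. Groups did not overlap in 15.8% of all genes tested. Rec8 averaged 2.35 ± 0.880 FPKM in knockout and 8.93 ± 1.13 FPKM in WT libraries (SD, n = 3 each), so that the knockout level was 26.4% of the WT level. The difference of mean log2(FPKM + 1), called the log2 fold change throughout, was -1.60 (SE 0.30), on a scale that understates changes of low genes. Of 11532 genes with a mean of at least 1 FPKM, 94 had a lower log2 fold change. With an annotated transcript of 2184 nt, Rec8 rested on an estimated 48, 31 and 58 fragments in the knockout libraries and 159, 217 and 288 in the WT libraries. In each library 3 fragments of Rec8 correspond to between 0.106 and 0.163 FPKM, so that the gene was read in all 6. In bulk samples such as these, fewer cells that express a gene and less of its RNA per cell cannot be told apart. The summed granulocyte and monocyte markers and the progenitor gene Cd48 lay higher in the same knockout libraries, by the values given above, and their part in the Rec8 difference was not tested.

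**Figure D1:**
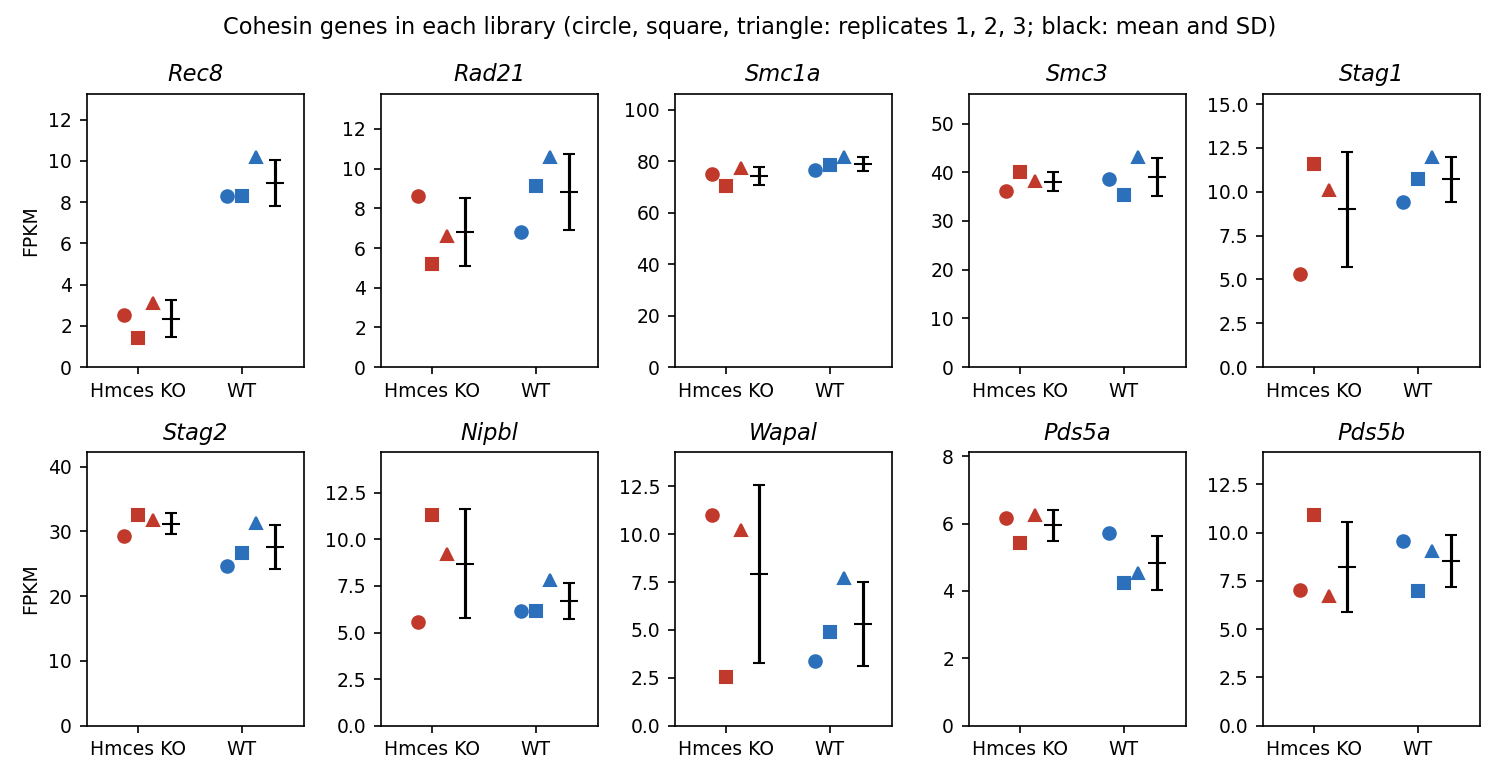
FPKM of each of the 10 cohesin genes (vertical axes, each from 0) in the 3 Hmces knockout libraries (red, left) and the 3 WT libraries (blue, right), with the mean and SD in black. Rec8 is the 1 gene of the 10 whose groups do not overlap (15.8% of all genes tested do not), with 1.39 to 3.13 FPKM in knockout and 8.27 to 10.2 FPKM in WT libraries.

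Rad21, the kleisin of somatic cells, overlapped between the groups. Its levels were 8.61, 5.21 and 6.58 FPKM in knockout libraries, against 6.80, 9.11 and 10.6 FPKM in WT libraries, with means of 6.80 ± 1.71 FPKM in knockout and 8.83 ± 1.91 FPKM in WT libraries (SD, n = 3 each) and a log2 fold change of -0.34 (SE 0.28). Knockout replicate 1 lay above WT replicate 1, and the other 2 knockout libraries lay below all WT libraries. Rec8 took 22.8%, 21.1% and 32.2% of the summed FPKM of both kleisin genes in knockout libraries, against 54.9%, 47.6% and 49.1% in WT libraries. In each knockout library Rad21 was the higher of the pair per length, whereas in WT libraries the ranges of both genes overlapped. The mean share of Rec8 was 25.4% ± 5.97 in knockout and 50.5% ± 3.83 in WT libraries (SD, n = 3 each), a difference of -25.18 percentage points. The sum of both genes was 9.15 ± 2.32 FPKM in knockout and 17.8 ± 2.90 FPKM in WT libraries. The third mammalian kleisin gene, Rad21l (now Rad21l1), was listed at 0 in all 6 libraries.

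The SMC genes, which form the body of the ring, were the most abundant members and the least variable. Smc1a was read at 75.1, 70.3 and 77.2 FPKM in knockout libraries, against 76.7, 78.5 and 81.8 FPKM in WT libraries. Smc3 was read at 36.1, 40.0 and 38.2 FPKM in knockout libraries, against 38.7, 35.4 and 43.2 FPKM in WT libraries. The groups overlapped for both genes, narrowly for Smc1a, whose highest knockout value exceeded only the lowest WT value. The log2 fold change was -0.09 (SE 0.11) for Smc1a and -0.03 (SE 0.14) for Smc3. Smc3 stood at 51.5% ± 4.69 of the Smc1a level in knockout and 49.5% ± 3.91 in WT libraries (SD, n = 3 each). Rad21 stood at 9.13% ± 2.09 of the Smc1a level in knockout and 11.1% ± 2.08 in WT libraries. The coefficient of variation (SD over mean) of Smc1a was 4.75% in knockout and 3.33% in WT libraries, against medians over all tested genes of 24.1% in knockout and 18.2% in WT libraries.

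The transcript of Stag2 exceeded that of its paralog Stag1 in every library. Stag2 was read at 29.3, 32.5 and 31.8 FPKM in knockout libraries, against 24.7, 26.6 and 31.3 FPKM in WT libraries, a log2 fold change of 0.18 (SE 0.16). Stag1 was read at 5.33, 11.6 and 10.1 FPKM in knockout libraries, against 9.40, 10.7 and 12.0 FPKM in WT libraries, a log2 fold change of -0.28 (SE 0.30). Knockout replicate 1 alone was low for Stag1, and without it the log2 fold change was 0.02 (SE 0.23). Stag2 made up 84.6%, 73.8% and 75.8% of the summed FPKM of the pair in knockout libraries, against 72.4%, 71.4% and 72.4% in WT libraries. All 3 knockout shares lay above all WT shares, by 6.00 percentage points at the mean and by 2.73 without knockout replicate 1. The nearest were 73.8% in knockout replicate 2 and 72.4% in WT libraries, and the groups of each gene alone overlapped. How often other gene pairs separate in this way was not computed, so nothing is read from this lack of overlap. On GRCm38, an annotated gene on the opposite strand, Gm37564, overlaps exons of Stag2. The use of strand in counting is not stated.

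**Figure D2:**
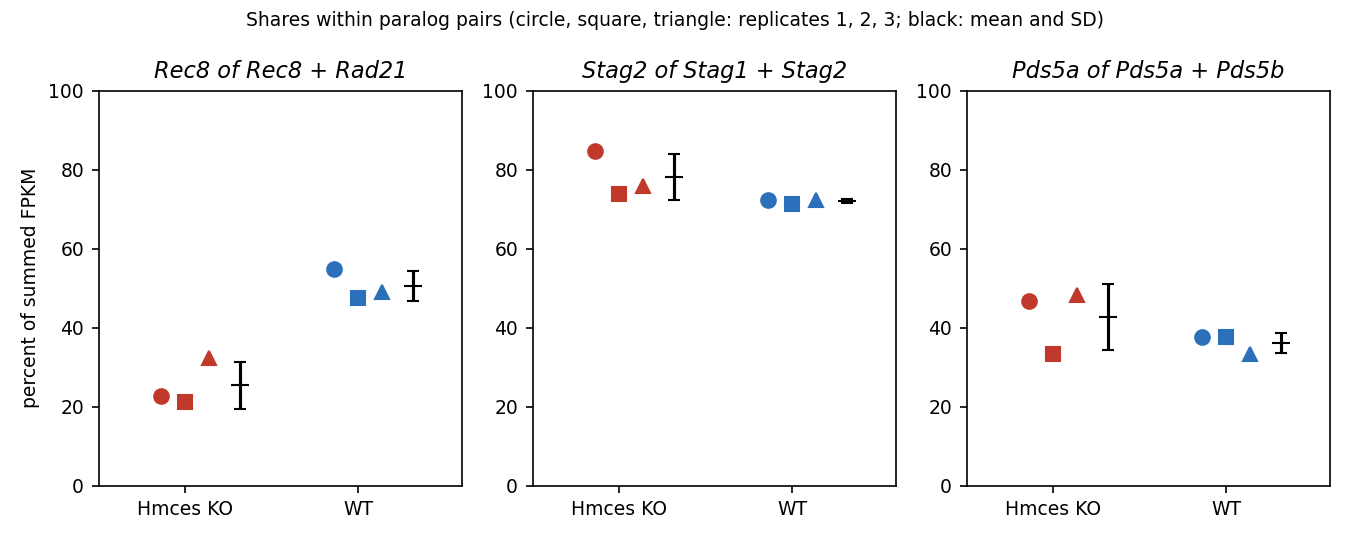
Share of each gene in the summed FPKM of its pair (vertical axis, percent) in the 3 Hmces knockout libraries (red, left) and the 3 WT libraries (blue, right), with the mean and SD in black. Rec8 holds 21.1% to 32.2% of the kleisin sum in knockout and 47.6% to 54.9% in WT libraries, while the Pds5a shares overlap.

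The loader gene Nipbl and the releaser gene Wapal varied among the knockout libraries. Nipbl was read at 5.57, 11.3 and 9.24 FPKM in knockout libraries, against 6.17, 6.13 and 7.82 FPKM in WT libraries, a log2 fold change of 0.29 (SE 0.30). Wapal was read at 11.0, 2.56 and 10.2 FPKM in knockout libraries, against 3.38, 4.89 and 7.70 FPKM in WT libraries, a log2 fold change of 0.37 (SE 0.51). Knockout replicate 1 had the least Nipbl of all 6 libraries, and knockout replicate 2, which stood apart over all genes, had the least Wapal. Without knockout replicate 2 the log2 fold change of Wapal was 0.94 (SE 0.35). It was 0.06 (SE 0.56) without knockout replicate 1 and 0.11 (SE 0.59) without knockout replicate 3. The log2 fold change of Nipbl was 0.55 (SE 0.25) without knockout replicate 1 and 0.10 (SE 0.30) without knockout replicate 2. The ratio of Nipbl to Wapal ran from 0.505 to 4.41 within the knockout libraries, with 0.902 in replicate 3, and from 1.02 to 1.83 in WT libraries. The mean ratio differed by 0.57 between knockout and WT libraries, and by -0.66 without knockout replicate 2, so that 1 library decided its direction.

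Pds5a and Pds5b, whose proteins share the same site on the ring, also overlapped between the groups. Pds5a was read at 6.18, 5.42 and 6.25 FPKM in knockout libraries, against 5.73, 4.24 and 4.52 FPKM in WT libraries, a log2 fold change of 0.26 (SE 0.25). Pds5b was read at 7.02, 10.9 and 6.69 FPKM in knockout libraries, against 9.54, 6.99 and 9.03 FPKM in WT libraries, a log2 fold change of -0.07 (SE 0.27). Pds5b was the higher of the pair in each library, most so in knockout replicate 2. Pds5a made up 42.8% ± 8.31 of the pair in knockout and 36.2% ± 2.48 in WT libraries (SD, n = 3 each). On GRCm38, exons of Pds5a overlap the opposite-strand genes Gm42727 and Gm42729, whereas no annotated gene overlaps exons of Pds5b. Whether this overlap affected the Pds5a level was not tested.

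Set side by side, the members fell into a high and a low tier in both groups. In knockout libraries the order of mean levels was Smc1a, Smc3, Stag2, Stag1, Nipbl, Pds5b, Wapal, Rad21, Pds5a and Rec8, and in WT libraries it was Smc1a, Smc3, Stag2, Stag1, Rec8, Rad21, Pds5b, Nipbl, Wapal and Pds5a. The ranges of Smc1a, Smc3, Stag2 and Stag1 were separate from one another in both groups. From Stag1 down to Pds5a, each gene's range overlapped that of the next in both orders, so that neighbouring places are not told apart by the libraries. Genes further apart in an order could be separate, as were Stag1 (9.40 to 12.0 FPKM) and Nipbl (6.13 to 7.82 FPKM) in WT libraries. Rec8 had a place of its own below Pds5a in knockout libraries, where its highest value of 3.13 FPKM lay below the lowest Pds5a value of 5.42 FPKM, and lay within this low tier in WT libraries. The 10 genes summed to 192 ± 6.40 FPKM in knockout and 199 ± 16.3 FPKM in WT libraries (SD, n = 3 each).

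Over the 10 members the median log2 fold change was -0.05, with 4 positive and 6 negative, against a median of -0.01 over all 11532 genes tested, of which 48.1% were positive. Without Rec8 the other 9 ran from -0.34 to 0.37. All 10 passed the filter on low values. Rec8 was the 1 member whose groups did not overlap, where 15.8% of all genes did not, 7.47% with the knockout libraries higher and 8.34% with them lower. The rule that chose the members drew on this comparison, so nothing is read from this count.

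**Figure D3:**
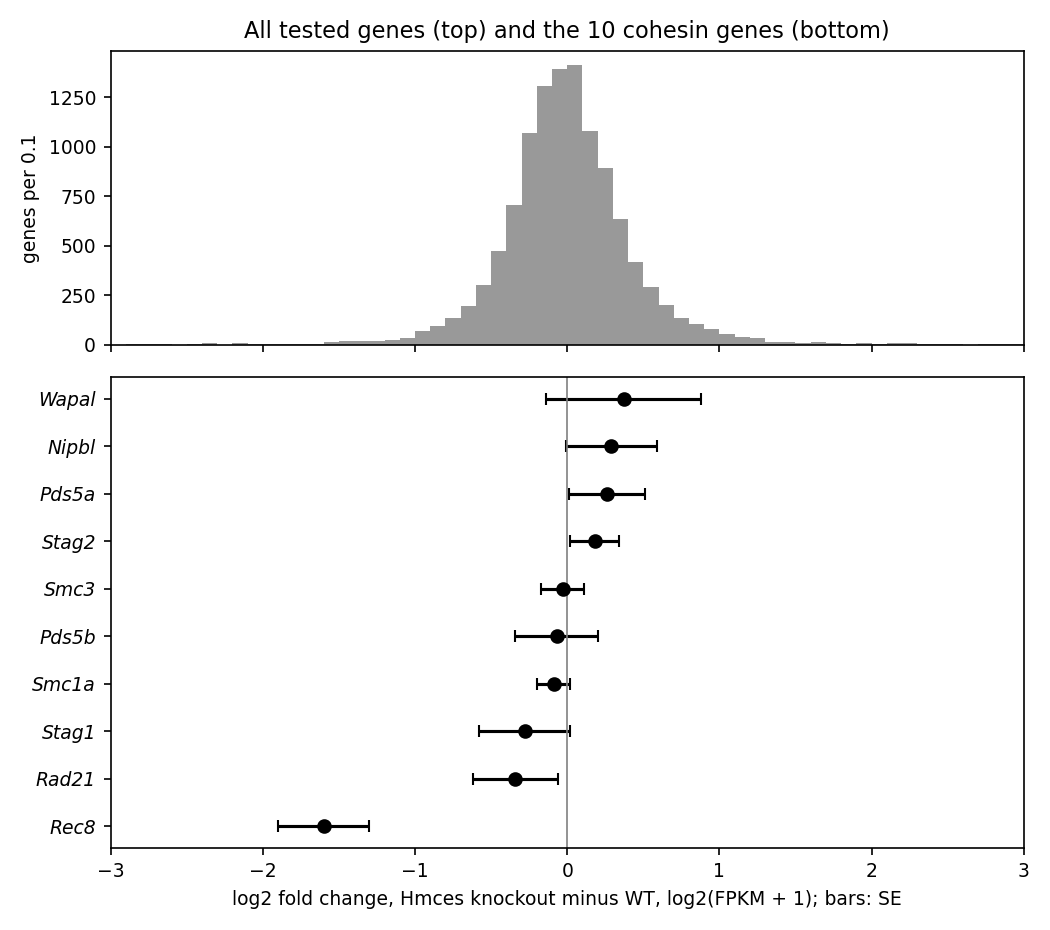
Difference of log2(FPKM + 1), Hmces knockout minus WT (horizontal axes), for all 11532 tested genes as a histogram (top, genes per bin of 0.1, axis limited to -3 to 3) and for the 10 cohesin genes with SE bars (bottom). Rec8 lies at -1.60 and the other 9 between -0.34 and 0.37, within the bulk of all genes.

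Further genes of the cohesin cycle gave no call. Of 26 genes called partners here, which load, acetylate, protect, cleave or position the ring, act with it in replication or mitosis, or encode its meiotic subunits, 23 were tested, 9 with a positive and 14 with a negative log2 fold change and a median of -0.08. None rose and none fell by limma's test over all genes (0.104% of all genes were called higher and 0.00867% lower), while 1 was higher and 1 lower at an unadjusted p under 0.05 (4.32% and 4.84% of all genes). Hdac8, the deacetylase that recycles SMC3, was read at 27.9, 28.7 and 27.4 FPKM in knockout libraries, against 17.2, 14.4 and 23.0 FPKM in WT libraries (log2 fold change 0.62, SE 0.20, limma adjusted p = 0.482). Chtf18, of the clamp loader that acts in cohesion establishment, was read at 8.76, 10.8 and 9.19 FPKM in knockout libraries, against 13.7, 14.5 and 15.3 FPKM in WT libraries (log2 fold change -0.55, SE 0.20, limma adjusted p = 0.495). Neither gene's groups overlapped, where those of 15.8% of all genes tested did not. Both were named for the smallest p of their list. Aurkb, a mitotic kinase that acts on centromeric cohesion, averaged 64.3 ± 0.771 FPKM in knockout and 76.6 ± 4.93 FPKM in WT libraries (SD, n = 3 each; limma adjusted p = 0.577). The following partners were picked after their values were seen. Mau2, the partner of NIPBL, averaged 23.6 ± 4.35 FPKM in knockout and 23.9 ± 2.51 FPKM in WT libraries, and Esco2, which encodes an acetyltransferase of SMC3, averaged 11.7 ± 3.14 FPKM in knockout and 16.7 ± 2.72 FPKM in WT libraries (SD, n = 3 each).

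The related SMC complexes were measured for comparison. Of 16 genes of condensin, which compacts mitotic chromosomes, and of the SMC5 and SMC6 complex, 15 were tested, with a median log2 fold change of -0.05, 0 called in either direction by limma and 2 lower at an unadjusted p under 0.05 (4.84% of all genes). Ncaph, the kleisin of condensin I, was read at 20.2, 20.2 and 20.9 FPKM in knockout libraries, against 28.8, 28.5 and 27.8 FPKM in WT libraries (log2 fold change -0.46, SE 0.15, limma adjusted p = 0.482). Ncaph2, the kleisin of condensin II, averaged 64.2 ± 8.29 FPKM in knockout and 83.2 ± 3.06 FPKM in WT libraries (SD, n = 3 each; limma adjusted p = 0.495). All 3 knockout values lay below all WT values for both, as they did for 8.34% of all genes tested. Smc5 averaged 14.6 ± 4.56 FPKM in knockout and 9.84 ± 1.59 FPKM in WT libraries, with every knockout library above every WT library (limma adjusted p = 0.612). The same held for 7.47% of all genes tested. Ncaph, Ncaph2 and Smc5 were named for the smallest p of their list, so nothing is read from their lack of overlap.

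Rec8 was read above 1 FPKM in all 6 libraries. Of 32 further meiosis and germ cell genes, some of them also among the partners, 10 had a mean of at least 1 FPKM, 22 lay below it and 7 of these were listed at 0 in all 6 libraries. Among the partners of REC8 in meiotic cohesin, Smc1b was listed at 0.0545, 0 and 0 FPKM in knockout libraries, against 0, 0 and 0.238 FPKM in WT libraries, and Stag3 was read at 2.11, 0.664 and 2.13 FPKM in knockout libraries, against 2.14, 1.09 and 0.0523 FPKM in WT libraries. Stra8, the germ cell factor that precedes meiosis, was listed at 0.0836, 0 and 0.171 FPKM in knockout libraries and at 0 in every WT library. The 10 tested genes had a median log2 fold change of 0.13, with 0 called by limma, and 1 higher and 1 lower at an unadjusted p under 0.05 (4.32% and 4.84% of all genes). The lower one was Psmc3ip, whose product HOP2 assists strand invasion, at 20.3, 23.9 and 25.4 FPKM in knockout libraries, against 44.5, 42.5 and 38.0 FPKM in WT libraries (log2 fold change -0.82, SE 0.16, limma adjusted p = 0.199). The higher one was Prdm9, the histone methyltransferase that places meiotic breaks, at 2.86, 3.44 and 2.14 FPKM in knockout libraries, against 1.33, 1.38 and 0.840 FPKM in WT libraries (log2 fold change 0.80, SE 0.33, limma adjusted p = 0.532). Ddx4, a germ cell RNA helicase gene, averaged 4.51 ± 2.28 FPKM in knockout and 6.85 ± 1.93 FPKM in WT libraries (SD, n = 3 each; limma adjusted p = 0.697).

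Genes known to act on Rec8 or on germline genes were read as well. Of 11 genes of the retinoic acid response, which induces Rec8 in germ cells, 4 were tested, with a median log2 fold change of -0.01 and 0 called by limma, also at an unadjusted p under 0.05 (9.16% of all genes). Dhrs3, a retinal reductase gene, and Tgm2, a transglutaminase gene, had limma adjusted p-values of 0.968 and 0.662. All 17 genes of repressors of germline genes were tested, 12 with a negative log2 fold change and a median of -0.23, with 0 called by limma and 1 lower at an unadjusted p under 0.05 (4.84% of all genes). That one was Uhrf1, which guides maintenance DNA methylation, at 67.0 ± 5.92 FPKM in knockout and 89.4 ± 10.8 FPKM in WT libraries (limma adjusted p = 0.488). Pcgf6, of a Polycomb complex that represses germline genes, averaged 15.3 ± 5.86 FPKM in knockout and 23.5 ± 1.79 FPKM in WT libraries (limma adjusted p = 0.549), and the corepressor gene Trim28 averaged 33.2 ± 16.5 FPKM in knockout and 50.1 ± 5.43 FPKM in WT libraries (SD, n = 3 each; limma adjusted p = 0.549), with knockout replicate 1 at 52.2 FPKM within the WT range. The 18 cycling markers, read because cohesion genes follow the cell cycle, had a median of 0.04, with 0 called by limma and 2 lower at an unadjusted p under 0.05 (4.84% of all genes). Mcm5 and Mcm3, of the replicative helicase, averaged 137 ± 9.91 and 191 ± 30.6 FPKM in knockout libraries, against 170 ± 6.67 and 239 ± 1.88 FPKM in WT libraries, and the mitotic kinase gene Aurka averaged 47.6 ± 4.43 FPKM in knockout and 37.4 ± 5.43 FPKM in WT libraries (SD, n = 3 each; limma adjusted p = 0.490, 0.515 and 0.566).

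**Figure D4:**
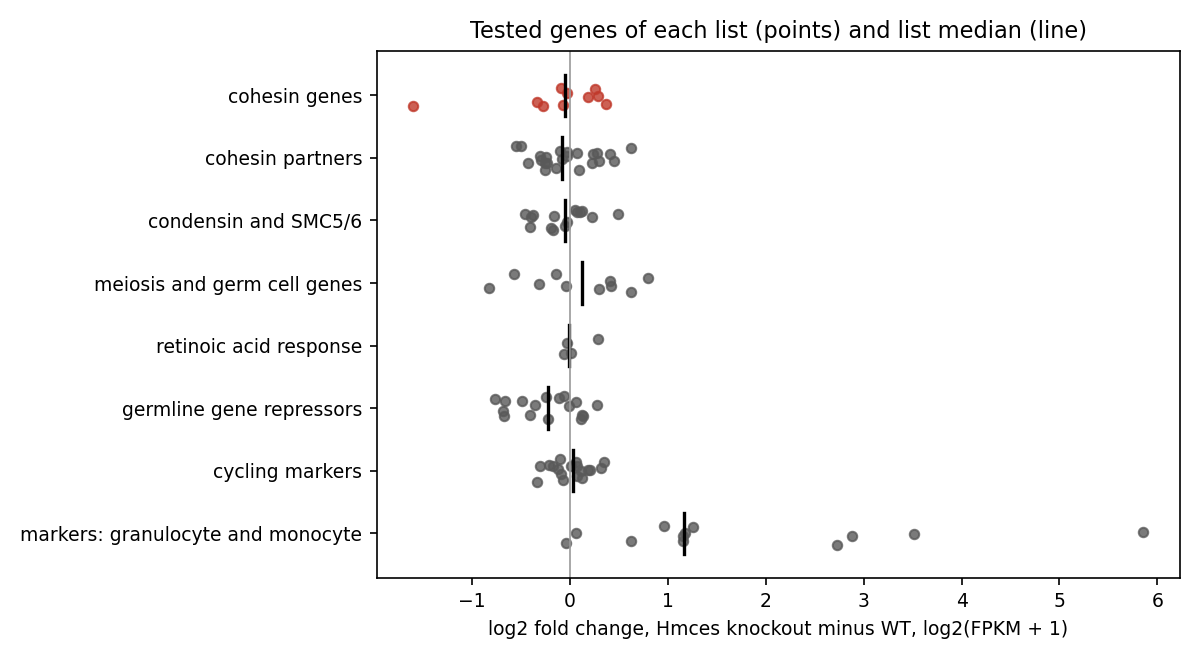
Difference of log2(FPKM + 1), Hmces knockout minus WT (horizontal axis), for the tested genes of each list (points, spread vertically for legibility) with the list's median as a line. The cohesin genes have a median of -0.05 with Rec8 alone at -1.60, the other 6 lists have medians between -0.23 and 0.13, and the granulocyte and monocyte markers have a median of 1.17.

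The groups overlapped for all 6 genes read beside Rec8 on chromosome 14, where those of 15.8% of all genes tested did not. The 3 nearest genes in the table on one side, in RefSeq order, were Irf9, Rnf31 and Psme2, and those on the other were Ipo4, Tm9sf1 and Tssk4. Irf9, an interferon signalling factor, was read at 44.3, 81.3 and 68.8 FPKM in knockout libraries, against 44.5, 49.8 and 44.8 FPKM in WT libraries (log2 fold change 0.43, SE 0.22, limma adjusted p = 0.596), with knockout replicates 2 and 3 above all WT libraries. Ipo4, an importin gene, averaged 28.1 ± 5.50 FPKM in knockout and 26.0 ± 4.26 FPKM in WT libraries (SD, n = 3 each; log2 fold change 0.10, limma adjusted p = 0.905). For Rnf31, Psme2 and Tm9sf1 the log2 fold changes were -0.34, -0.06 and 0.04 (limma adjusted p = 0.763, 0.899 and 0.965), and Tssk4 lay below the filter. No annotated gene overlaps exons of Rec8 on GRCm38.

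**Figure D5:**
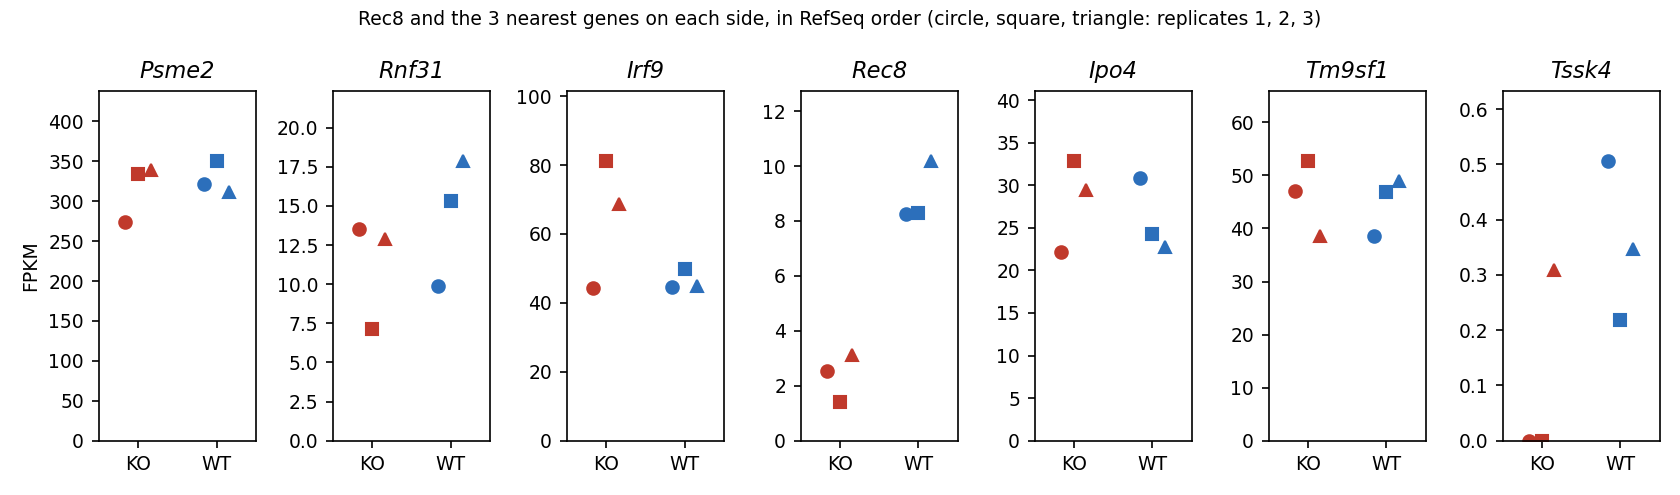
FPKM (vertical axes, each from 0) of Rec8 and of the 3 nearest genes on each side, in RefSeq order, in the 3 Hmces knockout libraries (red, left) and the 3 WT libraries (blue, right). The groups of the 6 neighbours overlap and those of Rec8 do not, where 15.8% of all genes tested have groups without overlap.

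The genes whose levels followed Rec8 most closely over the 6 libraries were Nars (Pearson r = 0.992), Tmed10 (0.988), Snx5 (0.987), Hspe1 (0.987) and Fbl (0.986), computed on log2(FPKM + 1) and given as a description. The 6 points fall into the 2 genotypes, and 180 of 10169 genes compared had an r over 0.9, 1.77% of them. Nars, an asparaginyl-tRNA synthetase gene, averaged 79.1 ± 6.42 FPKM in knockout and 102 ± 2.46 FPKM in WT libraries, and Fbl, the fibrillarin gene, averaged 147 ± 16.2 FPKM in knockout and 218 ± 15.5 FPKM in WT libraries (SD, n = 3 each; limma adjusted p = 0.482 and 0.289). Among the members the r with Rec8 was highest for Smc1a, at 0.86, and lowest for Pds5a, at -0.63.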

How the data were processed

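RNA of sorted LT-HSCs from 3 Hmces knockout and 3 WT libraries was sequenced as paired-end reads of 150 bp, per the labels' protocols. The design text mentions duplicates, whereas the labels list 3 libraries per genotype, all of which were used. The authors deposited FPKM values per gene, 1 column per library, made with TopHat2 2.1.1 and Cufflinks 2.2.1 on mouse build mm9, per the submitters' processing notes; for alignment options, annotation and strand use nothing is stated. FPKM is relative to the other transcripts of a library, and a gene listed at 0 may be a failed estimate.

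Genes with a mean of at least 1 FPKM over the 6 libraries, 11532 of 23235, were fitted as log2(FPKM + 1) with limma 3.58.1 in R 4.3.3 (eBayes with a mean-variance trend), two-sided, with Benjamini-Hochberg adjustment over all of them and a threshold of 0.05. The fit was tested on simulated data. Fold changes are Hmces knockout minus WT. Symbols were matched to RefSeq (GRCm38.p6) directly for 20652 genes and through a synonym for 2340. That build differs from mm9, so coordinates are given only for RefSeq promoters. Depth was estimated from the low values of 1427 genes with 1 annotated transcript over 1500 nt, assuming fragments of 200 nt. Among the commonest values, the one that made most low values whole numbers of fragments was kept. In knockout replicate 1 the kept value was shared by 28 genes, against 65 to 78 in the other libraries, so its depth is less certain. The depth estimate covers counting error only.

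The members and lists were chosen with earlier results of these data known. Named were all members, any called gene of the 6 other lists and the 3 with the smallest p in each, the 3 nearest genes on each side of Rec8, and the 5 genes most correlated with Rec8, leaving out predicted and small RNA genes; 1 gene that the rule names is not reported here. Nothing in the labels states that each library is from its own mouse, so the p-values cover the spread among these libraries alone, possibly technical.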

Additional observations from a re-analysis of the deposited data

How the results depend on the processing

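Rec8 was lower in Hmces knockout than in WT libraries in all 14 alternative fits. Its log2 fold change was -1.76 to -1.37 when 1 library was left out. With a pseudocount of 0.1, a setting that gives more weight to low values by construction, it was -1.94. As its groups do not overlap, leaving out 1 library could not turn its sign. Changes of filter, trend, robust estimation or replicate block, and leaving out small RNA genes, keep every log2 fold change as it is. The count of fits is therefore no measure of robustness. Rad21 and Smc1a were negative, and Stag2, Nipbl, Wapal and Pds5a positive, in all 14, which include the settings that cannot move a log2 fold change. The groups of each of these genes overlapped. For Smc1a, Nipbl and Wapal the log2 fold change of the fit reported was smaller in size than its SE. Smc3, Stag1 and Pds5b changed sign or reached 0 when single libraries were left out, with ranges of -0.10 to 0.04, -0.47 to 0.02 and -0.27 to 0.05. The number of genes called over the whole table, 13 in the fit reported, was 6 without the mean-variance trend, 20 with robust estimation, 2 with a replicate block, 1 when low values were not filtered and 32 without small RNA genes, an alternative chosen after seeing the data; it ran from 2 to 19 with 1 library left out, and was 5 without knockout replicate 2, 2 without knockout replicate 3 and 7 without WT replicate 2. The cause of these shifts was not tested. No gene of the 6 other lists was called in any of the 14 fits, replicate block included. The labels do not state that equal replicate numbers pair libraries, so the fit reported used no pairing. Deviations of same-numbered libraries correlated at 0.011 to 0.080, values from too few libraries to settle whether the numbers pair them. Knockout replicates 1 and 3 correlated best with their own number (0.080 and 0.035), and knockout replicate 2 with WT replicate 3 (0.048). Estimated depth allows few fragments for Rec8 in knockout libraries, 31 to 58, and the depth estimate rests on an assumed fragment length.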
